A study of Mus musculus with 12 samples.

Results

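Neurotrophins are secreted growth factors that neurons release in response to activity. Bdnf encodes brain-derived neurotrophic factor (BDNF) and Ntf3 encodes neurotrophin-3 (NT-3). Ntrk2 and Ntrk3 encode their preferred receptor tyrosine kinases, TrkB and TrkC, which signal through the Ras-ERK and PI3K cascades and through phospholipase C. Sort1 encodes sortilin, a sorting receptor that binds the uncleaved proneurotrophins and directs BDNF to the regulated secretory pathway. Vgf encodes a secreted protein of the dense core vesicle that neurotrophins induce and that is cleaved into active peptides. In the amygdala, BDNF acting at TrkB is known to be needed for fear learning and for its extinction.

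These 6 genes were found by symbol among the 22564 genes of the mRNA table, 1 entry each, and their levels were compared in the amygdala of 12 male C57BL/6J mice aged 10 weeks. The question was how the levels differed after the formation of a cued fear memory, after its extinction and after retrieval followed by extinction. The F group (fear memory formation) had received tones paired with foot shocks and was sampled 1 h after that session. The control group had gone through the same session without shocks and was sampled at the same time. The E group (extinction) had been conditioned in the same way and then, on the next day, received repeated tones without shock. The RE group (retrieval-extinction) had been conditioned likewise, and on the next day received a single retrieval tone, a rest in the home cage and then the extinction session. Both were sampled 1 h after the last extinction session. The day of sampling, the earlier shocks and the extinction schedule therefore cannot be told apart when E or RE is set against F or control. Each group held 3 mice with 1 library each, numbered 1 to 3 in control, F and E and 3 to 5 in RE. The tissue was dissected from the basolateral amygdala, and p-values here measure the spread between these mice.

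Levels are given as FPKM, fragments scaled for the length of the transcript and the depth of the library, a scale per length on which genes may be compared. They are levels of a whole gene, so the full-length and the truncated forms of TrkB and TrkC, and the transcripts from the several promoters of Bdnf, were not separated. In bulk tissue, fewer cells of a type and less RNA per cell cannot be told apart. The deposited values implied 7653926 to 23167483 fragments per library, with the lowest number in E 1. On the first principal component over all genes tested (25.7% of the variance), control 2, F 1, E 2 and RE 4, 1 library in each group, lay at 13.7 to 41.9 and the other 8 at -32.4 to 0.49. Marker genes of cell types differed between groups: the summed level of 5 pyramidal neuron markers was 1283 to 1392 FPKM in F and 1257 to 1365 in RE, against 966 to 1147 in control and 803 to 1008 in E. In RE against control 4 of the 5 were higher and 1 was lower, Slc17a6 at -0.81 ± 0.36 (limma, adjusted p = 0.504). The summed level of 3 GABAergic neuron markers was 216 to 258 FPKM in E, 163 to 224 in control, 138 to 161 in F and 141 to 173 in RE. That of 5 oligodendrocyte markers was 549 to 755 FPKM in F, 868 to 1105 in control, 948 to 1058 in E and 676 to 1654 in RE. The 5 markers of the basolateral amygdala (Rspo2, Cplx1, Etv1, Lmo3 and Neurod2) summed to 257 to 266 FPKM in F and 256 to 277 in RE, against 274 to 324 in control and 287 to 314 in E. They did not move as 1: Neurod2 fell in E relative to F by -0.91 ± 0.14 (limma, adjusted p = 0.0469) and rose in RE relative to E by 0.72 ± 0.14 (limma, adjusted p = 0.0423), while Cplx1 was higher in E than in F (0.40 ± 0.13, limma, adjusted p = 0.265). The calls of Neurod2 were lost with no filter on low values, with the groups fitted alone and over the 8 other libraries. That of E against F was also lost without F 1, F 2, F 3, E 1 or E 2 (limma, adjusted p of 0.132, 0.221, 0.0643, 0.191 and 0.167 in turn), and that of RE against E without E 1, E 2, E 3, RE 3, RE 4 or RE 5 (limma, adjusted p of 0.214, 0.157, 0.0632, 0.117, 0.0931 and 0.159). The markers of striatal spiny neurons summed to 145 to 958 FPKM over all libraries.

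Bdnf and Sort1 had the lowest p-values of the 6 genes over the 4 groups, while Ntf3 had the largest fold changes and the widest spread. Bdnf was highest in F and nearly level in the other groups, while Sort1 was high in both F and RE and lower in control and E. The receptor genes Ntrk2 and Ntrk3 were abundant and nearly level throughout. None of the 6 genes passed a Benjamini-Hochberg adjusted p of 0.05 in any of the 6 comparisons (limma's moderated test, adjusted over the 13517 genes whose mean reached 0.5 FPKM, as it did for all 6). The share of all genes that did was 0% in F against control, E against control and RE against F, 0.0666% in RE against control, 0.0814% in E against F and 0.614% in RE against E.

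At an unadjusted p under 0.05 by the same test, the counts were as follows. In F against control, Bdnf and Sort1 were called (2 of 6, both higher in F) against 7.08% of all genes. The F and control values of both did not overlap, as for 12.5% of all genes. In E against control, 0 of 6 were called against 5.13% of all genes, and 1 (Ntf3) did not overlap against 10.5%. In RE against control, Sort1 was called as higher and Ntf3 as lower (2 of 6) against 9.65%, and both did not overlap against 12.7%. In E against F, Bdnf and Sort1 were called as lower (2 of 6) against 10.8%, and both did not overlap against 18.9%. In RE against F, Bdnf, Ntf3 and Vgf were called as lower (3 of 6) against 7.03%, and Bdnf and Ntf3 (2 of 6) did not overlap against 11.2%. In RE against E, Sort1 was called as higher (1 of 6) against 10.4%, and its values did not overlap, as for 15.6%. Over the 4 groups at once, Bdnf, Sort1 and Ntf3 (3 of 6) had an unadjusted p under 0.05 by limma's F test against 10.5% of all genes, and 0 of 6 an adjusted one against 0.303%. The median log2 fold change of the 6 genes was 0.19 in F against control, -0.30 in E against F and -0.34 in RE against F, beside 0.01, 0.02 and -0.03 over all genes, and it lay between -0.07 and -0.01 in the other 3 comparisons. These comparisons share groups, F in 3 of them and control in 3, so they are not independent of each other.

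**Figure D1:**
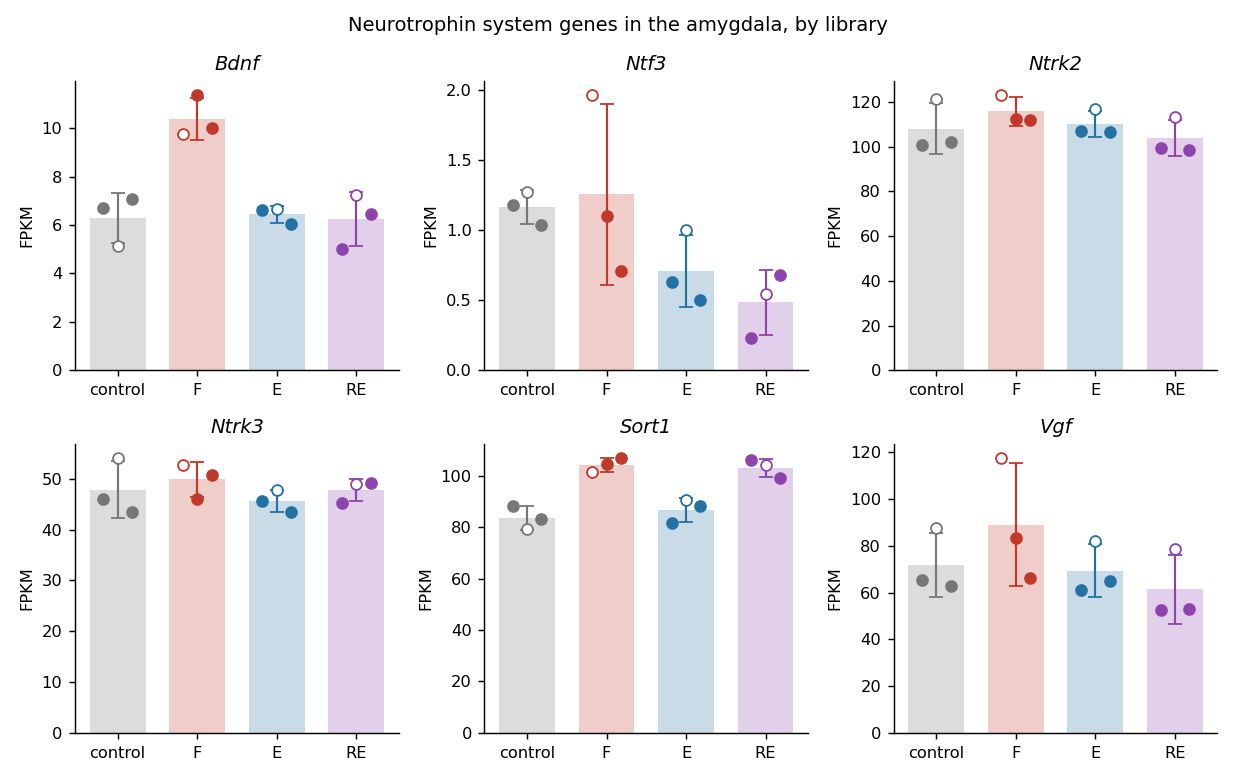
FPKM (vertical axis, from 0) of the 6 genes in each of the 12 libraries, by group; bars are means, error bars SD (n = 3), and open points mark the libraries that stood apart on the first principal component (control 2, F 1, E 2 and RE 4). Bdnf stands alone in F at 9.75 to 11.4 FPKM, Sort1 is high in F and RE, and Vgf and Ntrk2 are highest in the open points of every group.

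Bdnf (ENSMUSG00000048482, chromosome 2, 109674700 to 109727007 on the forward strand, mm10) encodes the main activity-dependent ligand of TrkB. It stood at 6.69, 5.12 and 7.07 FPKM in control 1 to 3 and at 9.75, 11.4 and 9.99 FPKM in F 1 to 3. It stood at 6.63, 6.67 and 6.04 FPKM in E 1 to 3 and at 5.02, 7.23 and 6.45 FPKM in RE 3 to 5. All F libraries lay above all 9 libraries of the other groups, and the values of control, E and RE overlapped. The means were 10.4 FPKM in F, 6.45 in E, 6.30 in control and 6.23 in RE (n = 3 each), so that E, control and RE did not differ beyond their spread. These levels rested on 247 to 854 fragments per library.

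Bdnf was 1.65-fold higher in F than in control, a log2 fold change of 0.72 ± 0.16 (SE) on the log2(FPKM + 0.1) scale (limma, adjusted p = 0.225). Against F it was lower by -0.68 ± 0.16 in E (limma, adjusted p = 0.123) and by -0.74 ± 0.16 in RE (limma, adjusted p = 0.563). In the order of genes by p it was number 41 of 13517 in F against control, 126 in E against F and 12 in RE against F. E and RE differed from control by 0.05 and -0.02, with 95% intervals of -0.30 to 0.39 and -0.36 to 0.33. An exact permutation test of 3 against 3 cannot go below p = 0.1, and Bdnf reached that value in its 3 comparisons with F, as does any gene whose groups do not overlap. With any single library left out, the log2 fold change of F against control lay between 0.58 and 0.81, always with an unadjusted limma p under 0.05. Oligodendrocyte and pyramidal neuron markers also differed between F and control, as given above, and their part in the level of Bdnf was not tested.

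The start of Bdnf is not 1 site: RefSeq lists 7 separate starts, whose windows of 250 bases before to 50 after the start were searched on both strands for the cyclic AMP response element TGACGTCA, its core TGACG and the E-box CACGTG. Binding of CREB at such an element is known as a route by which calcium entry and synaptic activity raise Bdnf transcription, which is why this window is shown. No window held the full element and 1 of the 7 held the core, read as CGTCA on the gene's own strand and given in capitals, 35 bases before the start (GRCm38.p6, forward strand, chr2:109692186-109692485).

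Bdnf window: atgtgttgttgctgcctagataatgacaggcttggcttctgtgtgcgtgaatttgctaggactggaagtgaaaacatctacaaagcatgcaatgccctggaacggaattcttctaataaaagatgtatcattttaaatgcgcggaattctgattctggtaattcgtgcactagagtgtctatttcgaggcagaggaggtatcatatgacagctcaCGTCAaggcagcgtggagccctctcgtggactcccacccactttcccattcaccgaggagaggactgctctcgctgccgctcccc

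The core is common: 20.8% of 32817 RefSeq promoter windows of the same length held it on either strand, 1.79% held the full element (which contains it) and 7.15% the E-box. Among the other members, Ntf3 has 2 windows and Ntrk2 has 1 in that table. One window of Ntf3 held an E-box, and the Ntrk2 window held none of the motifs. Which of the 7 starts gave the reads of the F libraries was not measured by a gene-level table.

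Ntf3 (ENSMUSG00000049107, chromosome 6, 126101413 to 126166744, reverse strand) encodes the preferred ligand of TrkC and was the scarcest of the 6 genes, at a mean of 0.905 FPKM, below which 6.30% of the genes tested lay. It stood at 1.18, 1.28 and 1.04 FPKM in control 1 to 3 and at 1.97, 1.10 and 0.707 FPKM in F 1 to 3. It stood at 0.627, 0.999 and 0.503 FPKM in E 1 to 3 and at 0.228, 0.548 and 0.682 FPKM in RE 3 to 5. Every E and RE library lay below every control library, while F spanned the range of control and part of that of E. These levels rested on only 4 fragments (RE 3) to 51 fragments (F 1).

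Against control, the log2 fold change of Ntf3 in RE was -1.20 ± 0.41 (limma, adjusted p = 0.314), and in E it was -0.69 ± 0.41 (limma, adjusted p = 0.995). Against F, it was -1.20 ± 0.41 in RE (limma, adjusted p = 0.651). F itself differed from control by 0.00 with a 95% interval of -0.90 to 0.89. Without RE 3, the library with 4 fragments, RE stood -0.83 from control (limma, adjusted p = 0.774) and -0.82 from F, and both unadjusted calls were lost. The call against F was also lost without F 1, at -0.84, and without the 4 libraries that stood apart, at -0.96 (limma, adjusted p = 0.405). A call was gained for E against F without F 3, at -1.01 (limma, adjusted p = 0.426), and with quantile normalisation, at -0.85 (limma, adjusted p = 0.419). At this depth, a difference of the size seen between E and control was not separable from the spread.

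Ntrk2 (ENSMUSG00000055254, chromosome 13, 58806596 to 59133970, forward strand), which encodes TrkB, was the most abundant of the 6 at a mean of 109 FPKM, above 97.1% of the genes tested. It stood at 101, 121 and 102 FPKM in control 1 to 3 and at 123, 112 and 112 FPKM in F 1 to 3. In E 1 to 3 it stood at 107, 117 and 107 FPKM and in RE 3 to 5 at 99.5, 113 and 98.7 FPKM. All groups overlapped, and the highest library of each group was the one that stood apart. The means ran from 116 FPKM in F through 110 in E and 108 in control to 104 in RE, with no neighbours in that order further apart than their spread. No comparison had an unadjusted p under 0.05 by limma. The largest difference, RE against F, was -0.16 ± 0.10 (limma, adjusted p = 0.783) with a 95% interval of -0.38 to 0.06. It was called at an unadjusted p under 0.05 once the kind of library entered the fit, that is, whether it was 1 of the 4 apart (-0.16, limma, adjusted p = 0.307), and over the 8 other libraries alone (-0.18, limma, adjusted p = 0.333). That kind was read from the first principal component of these same levels, which include Ntrk2, so both calls are descriptions.

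Ntrk3 (ENSMUSG00000059146, chromosome 7, 78192362 to 78578408, reverse strand), which encodes TrkC, had a mean of 47.8 FPKM, less than that of Ntrk2 in every library. It stood at 46.0, 54.2 and 43.4 FPKM in control 1 to 3 and at 52.7, 46.0 and 50.8 FPKM in F 1 to 3. In E 1 to 3 it stood at 45.6, 47.8 and 43.5 FPKM and in RE 3 to 5 at 45.2, 48.9 and 49.2 FPKM. All 4 groups overlapped. The log2 fold changes lay between -0.13 (E against F, 95% interval -0.34 to 0.09) and 0.07 (RE against E, 95% interval -0.15 to 0.28), and the coefficient of variation over all 12 libraries was 7.28%, the lowest of the 6 genes. For both receptor genes, an exact permutation test gave p of 0.2 or more in every comparison.

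**Figure D2:**
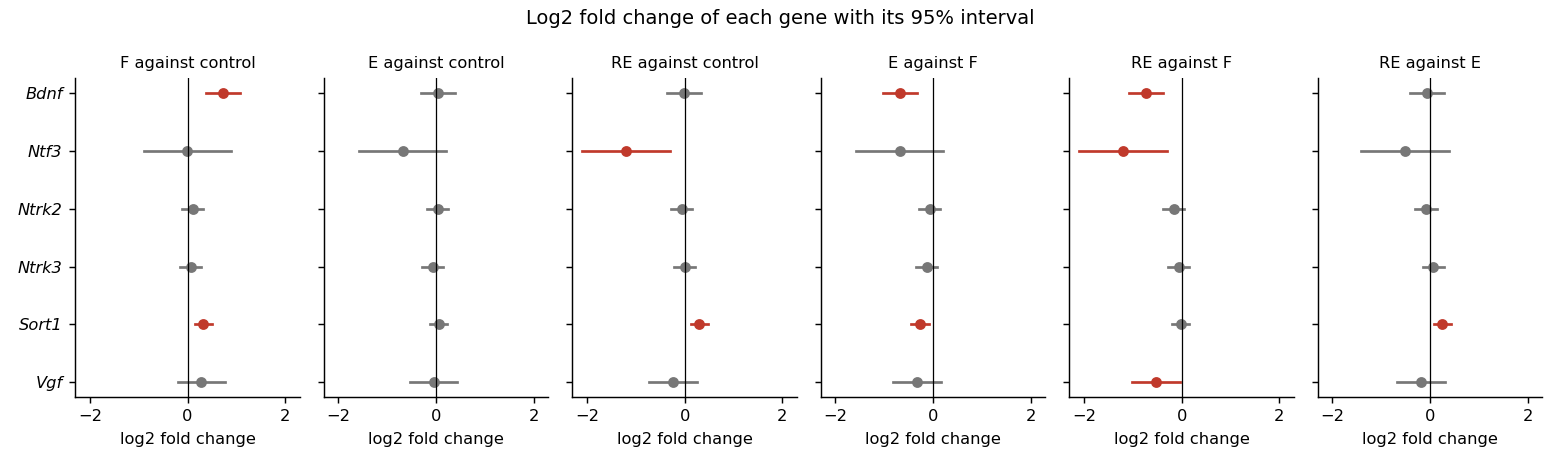
Log2 fold change (horizontal axis, log2(FPKM + 0.1) scale) of each gene in the 6 comparisons with its 95% interval from the limma fit; red marks an unadjusted p under 0.05, none of which passed adjustment. The intervals of Ntrk2 and Ntrk3 span 0 in all 6 panels, and that of Ntf3 is the widest.

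Sort1 (ENSMUSG00000068747, chromosome 3, 108283898 to 108361511, forward strand) encodes sortilin, which also serves as the co-receptor of p75NTR for proneurotrophins. It stood at 88.4, 79.2 and 83.3 FPKM in control 1 to 3 and at 101, 105 and 107 FPKM in F 1 to 3. It stood at 81.6, 90.7 and 88.1 FPKM in E 1 to 3 and at 106, 104 and 99.2 FPKM in RE 3 to 5. The 6 libraries of F and RE all lay above the 6 of control and E, with overlap inside each of the pairs. The means were 104 ± 2.77 FPKM in F, 103 ± 3.53 in RE, 86.8 ± 4.70 in E and 83.6 ± 4.61 in control (SD, n = 3).

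Sort1 was higher than in control by 0.32 ± 0.08 on the log2 scale in F (limma, adjusted p = 0.306) and by 0.30 ± 0.08 in RE (limma, adjusted p = 0.186), or 24.8% and 23.3%. E stood -0.27 ± 0.08 from F (limma, adjusted p = 0.215), and RE stood 0.25 ± 0.08 from E (limma, adjusted p = 0.258). RE and F differed by -0.02 with a 95% interval of -0.19 to 0.16, and E and control by 0.05 with an interval of -0.12 to 0.23. Leaving out any single library kept these 4 calls. The summed pyramidal neuron markers divided the libraries in the same way, F and RE above control and E without overlap, as did Neurod2. The single pyramidal markers did not all do so, since Slc17a6 was lower in RE than in control, as given above. The summed GABAergic markers were lower in F and RE than in E without overlap. The part of these markers in the level of Sort1 was not tested.

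Vgf (ENSMUSG00000037428, chromosome 5, 137030295 to 137033351, forward strand) had a mean of 73.0 FPKM. It stood at 65.6, 87.7 and 62.7 FPKM in control 1 to 3 and at 118, 83.3 and 66.2 FPKM in F 1 to 3. It stood at 61.0, 82.2 and 65.0 FPKM in E 1 to 3 and at 52.5, 78.6 and 53.0 FPKM in RE 3 to 5. The groups overlapped, and in each the highest value came from the library that stood apart. Among the other 8 libraries the levels were 66.2 and 83.3 FPKM in F, 62.7 and 65.6 in control, 61.0 and 65.0 in E and 52.5 and 53.0 in RE. The order was F, control, E and RE in the libraries that stood apart (1 per group) and by the means of the other 8 (2 per group). Among those 8, control and E overlapped, at means of 64.1 and 63.0 FPKM.

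Over all 12 libraries, Vgf was called in 1 comparison, RE against F, at -0.52 ± 0.22 (limma, adjusted p = 0.688). That call was lost when F 1 was left out (-0.30), and likewise without F 2 (-0.55), RE 3 (-0.42) or RE 5 (-0.43). It was also lost with the F and RE libraries fitted alone (limma, adjusted p = 0.81). The kind of library was read from the first principal component of these same levels, which include Vgf, so fits by kind are descriptions here. With the kind of library in the fit, the fold changes were the same and the errors smaller, and 4 comparisons had an unadjusted p under 0.05. F against control was then 0.28 ± 0.09 (limma, adjusted p = 0.271), E against F -0.33 ± 0.09 (limma, adjusted p = 0.106), RE against control -0.24 ± 0.09 (limma, adjusted p = 0.244) and RE against F -0.52 ± 0.09 (limma, adjusted p = 0.194). Over the 8 other libraries alone, RE was called against control (-0.28, limma, adjusted p = 0.303), against E (-0.26, limma, adjusted p = 0.287) and against F (-0.49, limma, adjusted p = 0.233). Without F 3, E against F was called as well (-0.52, limma, adjusted p = 0.43).

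Beyond the Trk receptors, Ngfr encodes p75NTR, which binds all neurotrophins and is known in the forebrain from cholinergic neurons. It was far scarcer than Ntrk2 and Ntrk3 and was highest in E. Ngfr stood at 0.638, 2.59 and 0.586 FPKM in control 1 to 3 and at 0.231, 0.510 and 0.682 FPKM in F 1 to 3. It stood at 2.88, 3.38 and 2.79 FPKM in E 1 to 3 and at 0.303, 0.609 and 0.312 FPKM in RE 3 to 5. All E libraries lay above all others, and control 2 was the nearest to them. The summed endothelial markers were also highest in E, at 40.9 to 49.9 FPKM against 24.0 to 35.4 FPKM in the other groups, and their part in this level was not tested.

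Ngfr fell in RE relative to E by -2.66 ± 0.50 (limma, adjusted p = 0.0422). The call of Ngfr did not hold with any 1 of the 6 E or RE libraries left out, at adjusted p of 0.0576 without RE 4, 0.08 without E 3, 0.152 without RE 3, 0.158 without RE 5, 0.17 without E 2 and 0.193 without E 1, nor with no filter on low values (limma, adjusted p = 0.0682). Without the 4 libraries that stood apart it was -2.85 (limma, adjusted p = 0.0212). Relative to F, E was higher in Ngfr by 2.52 ± 0.50 (limma, adjusted p = 0.0843). Ntf5, which encodes neurotrophin-4, was at or under 0.111 FPKM in every library and was not tested.

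Around the 6 genes, 11 lists of other genes of the pathway were followed, of which 139 entries could be tested. At an unadjusted p under 0.05 (limma), 21 were higher and 2 lower in F against control, 8 higher and 27 lower in E against F, and 4 higher and 26 lower in RE against F. In E against control 6 were higher and 4 lower, in RE against control 11 and 9, and in RE against E 6 and 9. These are 16.5%, 25.2%, 21.6%, 7.19%, 14.4% and 10.8% of the entries in turn, against the shares of all genes given above. After adjustment, 1 rose (Rtn4r) and 1 fell (Ngfr), both in RE against E, and 0 in the other 5 comparisons. The lists were chosen with earlier results of these libraries known, so their shares are descriptions.

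Of the lists, 2 hold genes that respond to neurotrophin signalling. Of 15 genes that BDNF is known to induce in neurons, 6 were higher in F than in control and 0 lower, with a median log2 fold change of 0.66 against 0.01 for all genes. In E against F, 7 were lower and 0 higher (median -0.69 against 0.02), and in RE against F 8 were lower and 0 higher (median -0.73 against -0.03). The counts in these 3 comparisons are 40%, 46.7% and 53.3% of the list, against 7.08%, 10.8% and 7.03% of all genes. E and RE differed little from control here, with medians of -0.03 and -0.02. The list is made up in large part of immediate early genes, such as Fos, Arc and Egr1, which other forms of neuronal activity also induce. Without the 4 libraries that stood apart, the counts were 5 higher and 1 lower, 11 lower, and 10 lower and 1 higher in these comparisons. In that fit 8 and 7 genes were lower in E and in RE than in control, against 1 and 2 with all libraries. The share of all genes called in that fit is not given, so whether these counts exceed it cannot be read here.

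Fosb, which encodes a transcription factor of the AP-1 family, stood at 3.64, 2.19 and 3.48 FPKM in control and 7.76, 5.73 and 5.97 FPKM in F. It was higher in F by 1.06 ± 0.21 (limma, adjusted p = 0.214). Nptx2, a secreted pentraxin that gathers AMPA receptors at synapses, stood at 20.1, 13.5 and 18.4 FPKM in control, 28.7, 29.6 and 27.7 FPKM in F and 10.5, 18.1 and 13.3 FPKM in RE. The F values of both genes lay apart from those of control. In RE against F, Nptx2 stood at -1.07 ± 0.19 (limma, adjusted p = 0.418). Arc, a synaptic protein whose messenger is sent to dendrites, had the lowest p of the list in E against F, at -1.24 ± 0.30 (limma, adjusted p = 0.125).

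Of 11 genes of ERK feedback, the phosphatases, Sprouty and Spred proteins and ETS factors that ERK signalling induces, 4 were higher and 0 lower in F against control (median 0.26). In E against F 6 were lower and 0 higher (median -0.41), and in RE against F 5 were lower and 0 higher (median -0.24), with all 11 below 0. These are 36.4%, 54.5% and 45.5% of the list, against 7.08%, 10.8% and 7.03% of all genes. The medians of all genes were 0.01, 0.02 and -0.03. Dusp5, a nuclear phosphatase of ERK, stood at 2.17, 1.44 and 2.29 FPKM in control, 2.82, 3.91 and 3.03 FPKM in F and 2.64, 3.22 and 2.87 FPKM in RE, and was higher in F than in control by 0.71 ± 0.21 (limma, adjusted p = 0.398). Spred2, an inhibitor of Ras-ERK signalling, stood at 25.98 to 26.6 FPKM in E and 31.5, 33.1 and 37.0 FPKM in F, a difference of -0.36 ± 0.09 (limma, adjusted p = 0.129). The E and F values of Spred2 did not overlap. The counts over the 8 other libraries were 4 higher, 4 lower and 4 lower, without a share of all genes for that fit. In RE against F, the count of lower genes fell to 1 under the least favourable of the alternatives tried. Etv1 of this list is also a marker of the basolateral amygdala used above.

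**Figure D3:**
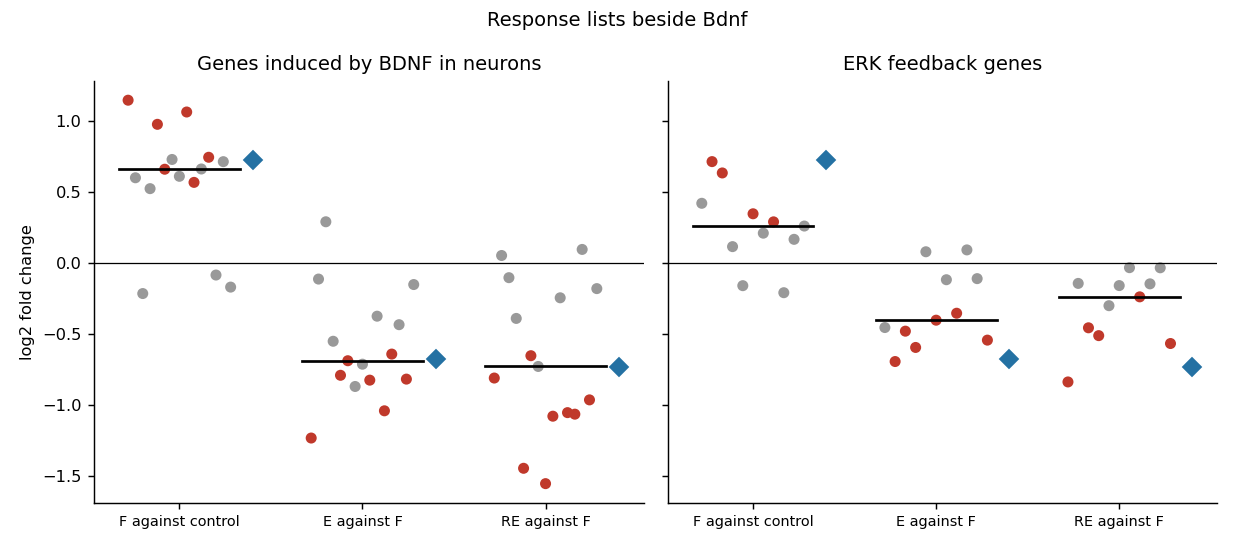
Log2 fold changes (vertical axis) of 15 genes known to be induced by BDNF (left) and of 11 ERK feedback genes (right) in F against control, E against F and RE against F; each point is a gene, red with an unadjusted p under 0.05, the black line is the list's median and the blue diamond is Bdnf. Bdnf lies at 0.72, -0.68 and -0.74, beside medians of 0.66, -0.69 and -0.73 on the left and beyond those of 0.26, -0.41 and -0.24 on the right.

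The arm of p75NTR and its co-receptors held the other adjusted call. Rtn4r encodes the Nogo receptor, which limits axon growth together with p75NTR and Lingo1. It stood at 12.7, 14.0 and 13.8 FPKM in control, 25.4, 20.4 and 22.3 FPKM in F, 9.29, 13.8 and 12.7 FPKM in E and 18.7, 24.4 and 19.3 FPKM in RE. The F and RE libraries all lay above those of control and E, the same division as for Sort1. It rose in RE relative to E by 0.81 ± 0.15 (limma, adjusted p = 0.0423) and differed in F against control by 0.74 ± 0.15 (limma, adjusted p = 0.214). The adjusted call did not hold with any 1 of the E or RE libraries left out, at adjusted p of 0.188 without E 1, 0.152 without E 2, 0.0649 without E 3, 0.111 without RE 3, 0.0953 without RE 4 and 0.139 without RE 5, nor with no filter (limma, adjusted p = 0.0646), E and RE alone (limma, adjusted p = 0.139) or the 8 other libraries (limma, adjusted p = 0.0666). Of the 10 genes of this list tested, the count called ran from 0 to 3 per direction over all comparisons and settings. With all libraries, 20% of them were called in F against control and 30% in E against F, against 7.08% and 10.8% of all genes. In E against control and RE against F the share was 10%, against 5.13% and 7.03%. In RE against control and RE against E it was also 10%, near the 9.65% and 10.4% of all genes.

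**Figure D4:**
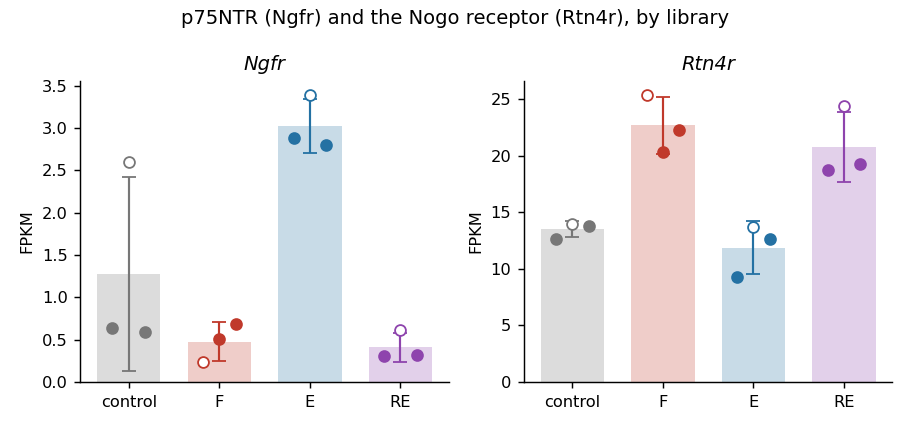
FPKM (vertical axes, from 0) of Ngfr and Rtn4r in the 12 libraries by group; bars are means, error bars SD (n = 3), and open points mark control 2, F 1, E 2 and RE 4. The E libraries hold the highest values of Ngfr (2.79 to 3.38 FPKM), while Rtn4r is higher in every F and RE library than in control and E.

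Among 10 tested genes of proneurotrophin cleavage, 1 was called in F against control (10% against 7.08% of all genes) and 0 in E against control (against 5.13%). In E against F 2 were lower (20% against 10.8%), and in RE against F 3 were lower (30% against 7.03%). The latter were Plat, the tissue plasminogen activator (-0.53), and the proprotein convertases Pcsk1 (-0.62) and Furin (-0.39), none past adjustment (limma, adjusted p = 0.635 for Plat, the lowest). In RE against control and RE against E, 1 was higher and 1 lower (20% in each, against 9.65% and 10.4% of all genes). Pcsk2, a prohormone convertase of dense core vesicles, stood at 77.8, 57.9 and 72.0 FPKM in control, 78.4, 93.7 and 98.5 FPKM in F, 65.5, 71.0 and 81.2 FPKM in E and 113, 98.3 and 112 FPKM in RE. The RE values lay above those of control and E. RE was higher than control by 0.65 ± 0.13 (limma, adjusted p = 0.0932) and than E by 0.57 ± 0.13 (limma, adjusted p = 0.0968). Among 12 genes of sorting and release, 1 was higher and 3 lower in RE against F (33.3% against 7.03% of all genes), namely Syt6 (0.87), and Dynll1 (-0.34), Hap1 (-1.15) and Sorcs3 (-0.36). In E against F 1 was higher and 1 lower (16.7% against 10.8%), and in RE against control 2 and 1 (25% against 9.65%). In F against control, E against control and RE against E 1, 0 and 1 were called (8.33%, 0% and 8.33% against 7.08%, 5.13% and 10.4%). Of these, Sorl1, which encodes a sorting receptor of the same family as sortilin, was higher than control by 0.39 ± 0.12 in F (limma, adjusted p = 0.407) and by 0.38 ± 0.12 in RE (limma, adjusted p = 0.235).

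Among 9 granins and vesicle proteins, the class to which Vgf is close, 0 were called in F against control and in E against control (against 7.08% and 5.13% of all genes). In E against F and in RE against F 1 was called (11.1% against 10.8% and 7.03%). In RE against control and in RE against E 2 were called (22.2% against 9.65% and 10.4%). Scg5, a chaperone of the convertase encoded by Pcsk2, stood at 93.8, 101 and 95.5 FPKM in RE against 76.6 to 89.5 FPKM in the other 9 libraries, and Scg2, the precursor of secretoneurin, at 70.4, 103 and 75.7 FPKM in RE against 111, 150 and 119 FPKM in control. RE stood -0.62 ± 0.17 from control in Scg2 (limma, adjusted p = 0.21). Of 23 Trk adaptors and 27 kinases of the Ras-ERK and PI3K cascades, 2 and 4 were called in F against control (8.70% and 14.8% against 7.08% of all genes). In E against F 5 and 3 were called (21.7% and 11.1% against 10.8%), and in RE against F 2 and 3 (8.70% and 11.1% against 7.03%). In E against control the counts were 2 and 2 (8.70% and 7.41% against 5.13%). In RE against control they were 1 and 3 (4.35% and 11.1% against 9.65%) and in RE against E 2 and 0 (8.70% and 0% against 10.4%). Sirpa, a membrane protein that binds the phosphatase SHP2, had the lowest p of the adaptors in E against F. It stood at 136, 144 and 146 FPKM in E and 174, 170 and 172 FPKM in F, a difference of -0.28 ± 0.08 (limma, adjusted p = 0.203), with no overlap. Of the receptors of VGF peptides, C3ar1 and C1qbp, neither was called against control or in RE against E. C1qbp stood at 21.2, 21.7 and 19.9 FPKM in F, 26.4, 28.1 and 22.6 FPKM in E and 23.9, 25.1 and 24.5 FPKM in RE. It was called as higher in E than in F (0.29 ± 0.10, limma, adjusted p = 0.277) and in RE than in F (0.23 ± 0.10, limma, adjusted p = 0.696), with no overlap in either. Of all genes, 10.8% were called in E against F and 7.03% in RE against F, and 18.9% and 11.2% did not overlap.

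Of 17 transcription factors known to act at Bdnf, 2 were higher in F than in control, and 2, 3, 3, 2 and 3 were called in E against control, RE against control, E against F, RE against F and RE against E. These are 11.8%, 11.8%, 17.6%, 17.6%, 11.8% and 17.6% of the 17 in turn. The shares of all genes were 7.08%, 5.13%, 9.65%, 10.8%, 7.03% and 10.4%. Mef2c, an activity-regulated factor, stood at 78.5, 62.0 and 84.3 FPKM in control, 99.2, 116 and 109 FPKM in F, 70.6, 75.8 and 92.6 FPKM in E and 105, 120 and 122 FPKM in RE. It divided the libraries as Sort1 did, and was higher than control by 0.53 ± 0.14 in F (limma, adjusted p = 0.306) and by 0.63 ± 0.14 in RE (limma, adjusted p = 0.104). Npas4, an immediate early factor that binds Bdnf promoters, did not follow Bdnf. It stood at 5.24, 3.68 and 6.15 FPKM in control, 2.92, 5.10 and 2.97 FPKM in F, 4.11, 1.97 and 1.88 FPKM in E and 1.79, 2.295 and 2.07 FPKM in RE, and RE stood -1.23 ± 0.31 from control (limma, adjusted p = 0.163).

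Across all 12 libraries, the genes whose log2 levels were most like those of each member were named by Pearson's r, as a description, since the libraries share groups and the split into kinds. Nearest to Bdnf were Stk40 (r = 0.956), Ptgs2 (0.932) and Nptx2 (0.931). Stk40 stood at 10.9 to 11.6 FPKM in F and 5.93 to 8.69 FPKM elsewhere. Ptgs2, the inducible cyclooxygenase, stood at 5.69 to 8.15 FPKM in F and 2.57 to 4.77 FPKM elsewhere. Both were thus apart in F, as Bdnf was. Nearest to Sort1 were Gfod1 (0.957), Prickle1 (0.957) and Sowahb (0.934). Gfod1 stood at 20.6 to 25.1 FPKM in F and RE and 15.4 to 19.4 FPKM in control and E. Prickle1, of the planar cell polarity pathway, stood at 16.4 to 20.5 and 12.6 to 15.7 FPKM. Gfod1 and Prickle1 thus showed the division of Sort1. Sowahb did not in full, since E 2 stood at 2.86 FPKM, above F 1 at 2.67 FPKM.

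Near to Vgf were Chpf (0.957) and Hid1 (0.955), and near to Ntrk2 Atp13a1 (0.959) and Cers4 (0.948). Chpf, which encodes a chondroitin polymerizing factor, stood at 17.7 to 22.5 FPKM in the 4 libraries that stood apart and 12.04 to 15.1 FPKM in the other 8. Nearest to Ntf3 were Chd3 (0.954), 1810041L15Rik (0.935) and Tro (0.931), and nearest to Ntrk3 Necap2 (0.898), Rapgef1 (0.879) and 3110043O21Rik (0.878). Among the members themselves, r was highest for Vgf with Ntrk2 (0.912), Vgf with Ntf3 (0.746) and Ntrk2 with Ntrk3 (0.691), and Sort1 lay near 0 with Ntrk2 (-0.00451) and Vgf (0.038). Bdnf with Ntrk2 was 0.349 and with Sort1 0.504.

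Circular RNAs, formed when a downstream splice site joins an upstream one, were counted in the same libraries by reads across that back-splice junction. Of 13957 circRNAs, 22 came from the 6 genes: 9 from Ntrk3, 8 from Ntrk2, 5 from Sort1 and 0 from Bdnf, Ntf3 and Vgf. They had 215 junction reads in all, 166 of them from Ntrk3, 37 from Ntrk2 and 12 from Sort1. The count for Ntrk3 thus exceeded that for Ntrk2 although its gene level was lower. The 4 that reached 10 reads were all from Ntrk3, and 3 of these were exonic. Their junctions were read from GRCm38.p6, with the end of the last exon first and the start of the first exon after it, and the 5 bases on either side of the junction in capitals, to show that 2 of the circles close from the same donor exon onto different acceptors.

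Ntrk3 circle at chr7:78450887-78462942, reverse strand: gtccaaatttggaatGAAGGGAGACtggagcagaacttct
Ntrk3 circle at chr7:78247155-78260414, reverse strand: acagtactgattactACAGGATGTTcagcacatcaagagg
Ntrk3 circle at chr7:78247155-78250873, reverse strand: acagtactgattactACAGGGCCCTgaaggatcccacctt

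All 3 are flanked in the genome by AG before the first base and GT after the last, the usual splice letters. The circle at 78450887 to 78462942 (932 bases spliced) had 3, 15 and 5 reads in control 1 to 3, 4, 3 and 2 in F 1 to 3, 2, 16 and 3 in E 1 to 3 and 1, 6 and 0 in RE 3 to 5. The one at 78247155 to 78260414 (548 bases) had 6, 0 and 10 reads in control, 3, 4 and 0 in F, 1, 16 and 4 in E and 3, 3 and 3 in RE. Control 2 and E 2, both among the libraries that stood apart, were the highest for the first circle, and E 2 was the highest for the second. The shortest, at 78247155 to 78250873 (417 bases), had 17 reads, 11 of them in E.

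Over the 4 groups, 0 of the 4 Ntrk3 circles had an unadjusted p under 0.05 (edgeR's quasi-likelihood F test, adjusted p = 0.999 for each), where 3.98% of the 3241 circRNAs tested had one, and 0 an adjusted one, against 0.0309%. DESeq2's likelihood ratio test likewise gave 0. A library held 7324 to 23446 junction reads over all circRNAs, and what difference could be detected in circles of this rarity was not measured. Without molecular identifiers, reads are not independent molecules.

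Of 31549 long noncoding transcripts, 6 lay at the loci of 3 members (Ntrk2, Ntrk3 and Sort1). Among them, 3 were listed at 0 in every library and 0 reached a mean of 0.1 FPKM, so none was tested. The highest single values were 0.149 FPKM for AK029797, antisense inside Ntrk2, and 0.136 FPKM for Gm12523, antisense to Sort1.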

How the data were processed

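The amygdala of 12 mice, 3 in each of 4 groups, had been sequenced by the authors as ribosomal RNA-depleted, directional libraries. The authors trimmed the reads with cutadapt, aligned them with HISAT2 to mouse mm10 and obtained FPKM with cuffdiff, per gene for mRNA and per transcript for lncRNA. These FPKM values were used as deposited. The deposited scaled counts, a signal already divided by a library factor, served only for the implied fragments, since 87.0% to 90.9% of values above 0 were whole within 0.05. The deposited circRNA counts are raw back-splice junction reads that the authors obtained with STAR and DCC. CASAVA 1.8 and BWA also stand in the submitters' processing notes, with a human genome build that the deposited mouse coordinates contradict. Columns with the authors' own comparisons were not used.

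The 6 members were matched by symbol, and log2(FPKM + 0.1) was fitted for the 13517 genes whose mean reached 0.5 FPKM with limma 3.58.1 (trend) in R 4.3.3, all 12 libraries in 1 fit with no covariate, with Benjamini-Hochberg adjustment over all genes within a comparison. Junction reads were tested with edgeR 4.0.16 (TMM, at least 10 reads, library size from the circRNAs tested) and DESeq2 1.42.0 as an alternative. Tests are two-sided. Alternatives changed the pseudocount (1), the filter (none or a mean of 1 FPKM), the scaling (common median or quantiles), the libraries fitted, the empirical Bayes step, the replicate block and a term for library kind. The kind of library was read from the first principal component of the same levels, not from a label. The fits were tested on simulated data. Members and lists were chosen with earlier results of these data known. Named from each list and comparison were up to 3 genes of lowest adjusted p under 0.05, else up to 2 of lowest unadjusted p, and the 3 genes nearest to each member by Pearson's r. Promoter windows are from RefSeq (GRCm38.p6), which held 10 windows for 3 members. Vgf, Sort1 and Ntrk3 were not matched. Some genes that this rule or the lists hold are not reported here, though counts over lists include them.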

Additional observations from a re-analysis of the deposited data

How the results depend on the processing

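With 552 refits of the 36 differences (6 genes in 6 comparisons), 0 reversed among differences called at an unadjusted p under 0.05, 33 changed sign without a call, and no gene passed adjustment in any setting. Leaving out no single library, 2 calls of 336 were lost and 8 gained, and leaving out 1 library 7 of 216 were lost and 2 gained, all in Ntf3, Vgf or Ntrk2, as given with those genes. The calls of Bdnf and Sort1 held in every setting run, with adjusted p no lower than 0.0632. In RE against control, the count of members at an unadjusted p under 0.05 went from 2 to 1 with a minimum mean of 1 FPKM. That filter drops Ntf3 from the test. In RE against E the count went from 1 to 2 over the 8 other libraries, where Vgf was gained. The term for library kind added calls of Vgf in F against control, E against F and RE against control. It also added a call of Ntrk2 in RE against F. With 1 library left out, the counts ranged from 1 to 2 in RE against control, from 2 to 4 in E against F and from 1 to 3 in RE against F. Same-numbered libraries of control, F and E did not deviate together (r from -0.30 to 0.15), so their numbers were not taken as pairs. With a replicate block, F against control kept 2 calls (Bdnf 0.72, limma, adjusted p = 0.504, and Sort1 0.32, adjusted p = 0.584), E against F 2 and E against control 0. edgeR and DESeq2 on recovered mRNA fragments were not run, as the scaled counts did not all come out whole, and the lncRNA alternatives were not run, as no transcript passed the filter. Low fragment numbers limit Ntf3, and low junction reads the circles.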
